A study of Mus musculus with 23 samples.

Results

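The genes described here are 44 cell cycle and DNA replication genes of the mouse, 20 that act in S phase or prepare for it and 24 that act in mitosis. They were given as a list of symbols and looked up among the 18682 features of the deposited count table. All 44 were present, and all 44 were among the 17708 features that passed the filter on low counts and were tested. They were followed through the endometrium of 23 uterine horns, each sequenced as 1 bulk RNA library.

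The mice were female C57BL/6, described in the series title as immunocompetent, and their age is not stated. Ethanol of a strength given as 70 degrees was used to injure the uterus. Horns were injected 4 days later with saline (PBS, 5 horns), a hydrogel derived from endometrium (HG, 6 horns) or that hydrogel carrying human endometrial organoids (HG+ORG, 6 horns). Endometrium was collected 2 weeks after injection. The labels do not say how the 6 SHAM horns were handled, at which stage of the estrous cycle tissue was taken or which horns came from 1 animal, so the spread and every p-value refer to libraries, some of which may share a mouse. Horns are named below by group and by the number in their title, and the PBS, HG and HG+ORG horns together are called injured. Reads of human organoid cells and mouse reads cannot be told apart in these counts.

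A cell that divides first licenses its replication origins by loading the ring of MCM proteins onto DNA, then fires them and copies its chromosomes in S phase, and later condenses and separates the copies in mitosis. Genes of the S phase group are switched on mostly by E2F transcription factors around the G1 to S transition. Genes of mitosis are held down in resting cells by the DREAM complex. They are switched on later, through the MuvB complex together with B-MYB and FOXM1. In the rodent uterus the luminal and glandular epithelium proliferates under estrogen and stops under progesterone, and few cells cycle in the resting tissue.

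The control regions of the 2 groups of genes carry different letters, and a few are printed because they show the elements through which replication and mitosis genes are known to be switched. Promoters were taken from RefSeq (GRCm38.p6, 250 bases before to 50 bases after the annotated start), where 35 of the 44 members matched. Aurkb, Gins2, Kif20a, Ccne2, Tpx2, Mcm4, Foxm1, Ccna2 and Exo1 did not. Each line gives the 120 bases before the start, 5′ to 3′ on the strand of the gene. Capitals mark matches, on either strand, to 3 elements, and overlapping matches run together and count for each element. The cell cycle genes homology region, or CHR, was searched as TTTGAA and also as TTCGAA. For the E2F site the letters TTCCCGC were searched first, then the variant TTCGCGC with the related form TTGCCGC, and last the form TTGGCGC. The CCAAT box was searched by its name. The 7 genes were chosen as examples after the matches were seen.
Cdk1, chr10:69352913-69353032, minus strand: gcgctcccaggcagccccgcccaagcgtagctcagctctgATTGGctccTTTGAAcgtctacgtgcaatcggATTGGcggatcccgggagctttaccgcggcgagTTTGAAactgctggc
Top2a, chr11:99024190-99024309, minus strand: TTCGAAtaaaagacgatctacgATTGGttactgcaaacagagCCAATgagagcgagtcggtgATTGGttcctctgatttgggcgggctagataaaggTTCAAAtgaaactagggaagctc
Cdc20, chr4:118437344-118437463, minus strand: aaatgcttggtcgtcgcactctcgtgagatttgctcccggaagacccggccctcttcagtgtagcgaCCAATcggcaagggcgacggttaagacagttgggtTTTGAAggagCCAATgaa
Ube2c, chr2:164769809-164769928, plus strand: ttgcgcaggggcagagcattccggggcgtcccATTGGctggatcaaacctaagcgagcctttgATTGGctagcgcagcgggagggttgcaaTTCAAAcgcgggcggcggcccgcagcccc
Mki67, chr7:135716380-135716499, minus strand: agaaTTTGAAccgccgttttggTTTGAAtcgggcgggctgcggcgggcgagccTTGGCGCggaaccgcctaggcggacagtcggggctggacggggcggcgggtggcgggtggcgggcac
Mcm6, chr1:128359706-128359825, minus strand: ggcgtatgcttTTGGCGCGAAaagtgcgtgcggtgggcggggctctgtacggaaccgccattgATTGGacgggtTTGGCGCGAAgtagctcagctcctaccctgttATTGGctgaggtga
Rrm1, chr7:102441575-102441694, plus strand: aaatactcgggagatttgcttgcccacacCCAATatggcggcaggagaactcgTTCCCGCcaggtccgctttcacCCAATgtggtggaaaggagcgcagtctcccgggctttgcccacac

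In these lines Cdk1, the kinase that drives entry into mitosis, holds 2 CHR matches and 2 CCAAT boxes, and Top2a, the topoisomerase that untangles sister chromosomes, holds 2 and 3. Cdc20 and Ube2c, which direct the destruction of mitotic proteins, each hold 1 CHR match and 2 CCAAT boxes. Mcm6 and Rrm1 hold E2F matches and no CHR match in the printed bases. Mki67, a marker of all cycling cells, holds both kinds. Over the whole 300-base window, a CHR match was found in 15 of the 19 mitosis members with a promoter (78.9%) and in 3 of the 16 replication members (18.8%), beside 16.9% of the 11648 tested genes that had one. An E2F match was found in 3 of 19 mitosis members (15.8%) and 10 of 16 replication members (62.5%), beside 18.2% of all. The CCAAT box was found in 15 of 19 and 10 of 16, beside 42.1%, and a CHR match with a CCAAT box in 13 of 19 and 3 of 16, beside 8.17%. The same division appeared in genes of the pathway outside the 44: of 34 other mitosis genes 24 held a CHR match (70.6%) and 7 an E2F match, and of 29 other replication and repair genes 7 held a CHR match and 20 an E2F match (69.0%). A match is a run of letters and not a measured binding site.

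The libraries held 7920918 to 14902952 counts, with a median of 12701407, and levels are given as log2 CPM (counts scaled to the size of the library, CPM, with a prior count of 2). Mitochondrially encoded genes took 1.50 to 11.4% of counts. SHAM 5 and SHAM 6 were nearly alike, with a chi-square over its degrees of freedom of 2.81. Among pairs within a group, the only ones compared, the next closest had 17.0. The largest difference between SHAM 5 and SHAM 6 over the 44 members was 0.36, and they were kept as separate horns on the basis of their titles. HG+ORG 18 had the lowest summed level of 8 epithelial markers, 843.5 CPM, and the highest of 6 macrophage markers, 18401.3 CPM. SHAM 3 and HG+ORG 21 stood apart in the members themselves.

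In SHAM 3 and HG+ORG 21 the mitosis genes were strongly reduced, none of them above the 102 counts of Kif23 in SHAM 3. The replication genes were reduced as well, some of them, such as Mcm7, Pcna, Rrm1 and Mcm6, keeping at least 221 counts. The members took 0.0215% of all counts in SHAM 3 (2875 counts) and 0.0237% in HG+ORG 21 (2699 counts). In the other horns they took from 0.0922% in HG+ORG 18 to 0.827% in HG+ORG 22. The 2 horns were the lowest pair of the 23 in 41 of the 44 members, in 24 of 24 mitosis genes and in 17 of 20 replication genes. Over all 17708 features tested the same 2 horns were the lowest pair in 1299, or 7.34%. The members were not chosen for this pattern, but the cell cycle score of SHAM 3 was already known to be low when they were listed.

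For several members the level in these horns was down to single counts. Bub1, a kinase of the spindle checkpoint, had 0 counts in SHAM 3, which allows up to 3 counts, a log2 CPM of -1.14 in that library. Ccne1 had 1 count there. Exo1, Kif2c, Cenpf and Cdc20 had 2 counts each, and Ccnb1 and Nuf2 had 3. In HG+ORG 21 Exo1 stood at 2 and Cenpf at 3 counts. In the remaining 21 horns no member was under 28 counts in any library. The 2 libraries were not shallow, with 13388570 counts in all in SHAM 3 and 11378821 in HG+ORG 21.

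The mitosis genes were reduced more than the replication genes in both horns. In SHAM 3 the median difference from the gene's own median over 23 horns was -5.34 (log2 CPM) over the mitosis members and -2.93 over the replication members. In HG+ORG 21 it was -4.68 and -2.77. Setting the members with 3 counts or fewer to 3 counts left these 4 medians as they are, because those members stayed under the medians. That check could not show whether low counts affect the difference between the 2 classes. Over all features tested the median difference was -0.03 in SHAM 3 and 0.02 in HG+ORG 21. The median SD of a member over the 23 horns was 1.54, against 0.558 over all features. Without the 2 horns the values were 0.902 and 0.522.

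The smallest differences belonged to replication genes, and those in SHAM 3 to Mcm7, Pcna and Rrm1. Mcm7, a subunit of the MCM ring, differed from its median by -1.46 in SHAM 3 and -1.14 in HG+ORG 21, and Pcna, the sliding clamp of the polymerases and of DNA repair, by -1.67 and -1.56. Rrm1, the large subunit of ribonucleotide reductase, differed by -1.86 and -2.41. Its partner Rrm2, whose protein accumulates in S phase, differed by -3.41 and -3.87. Mcm5, another subunit of the same ring as Mcm7, differed by -5.00 and -5.15. The 3 members for which another horn was among the 2 lowest were Mcm7, Cdc6 and Chek1, and that horn was HG+ORG 18 in each, at 5.04, 2.80 and 2.52.

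**Figure D1:**
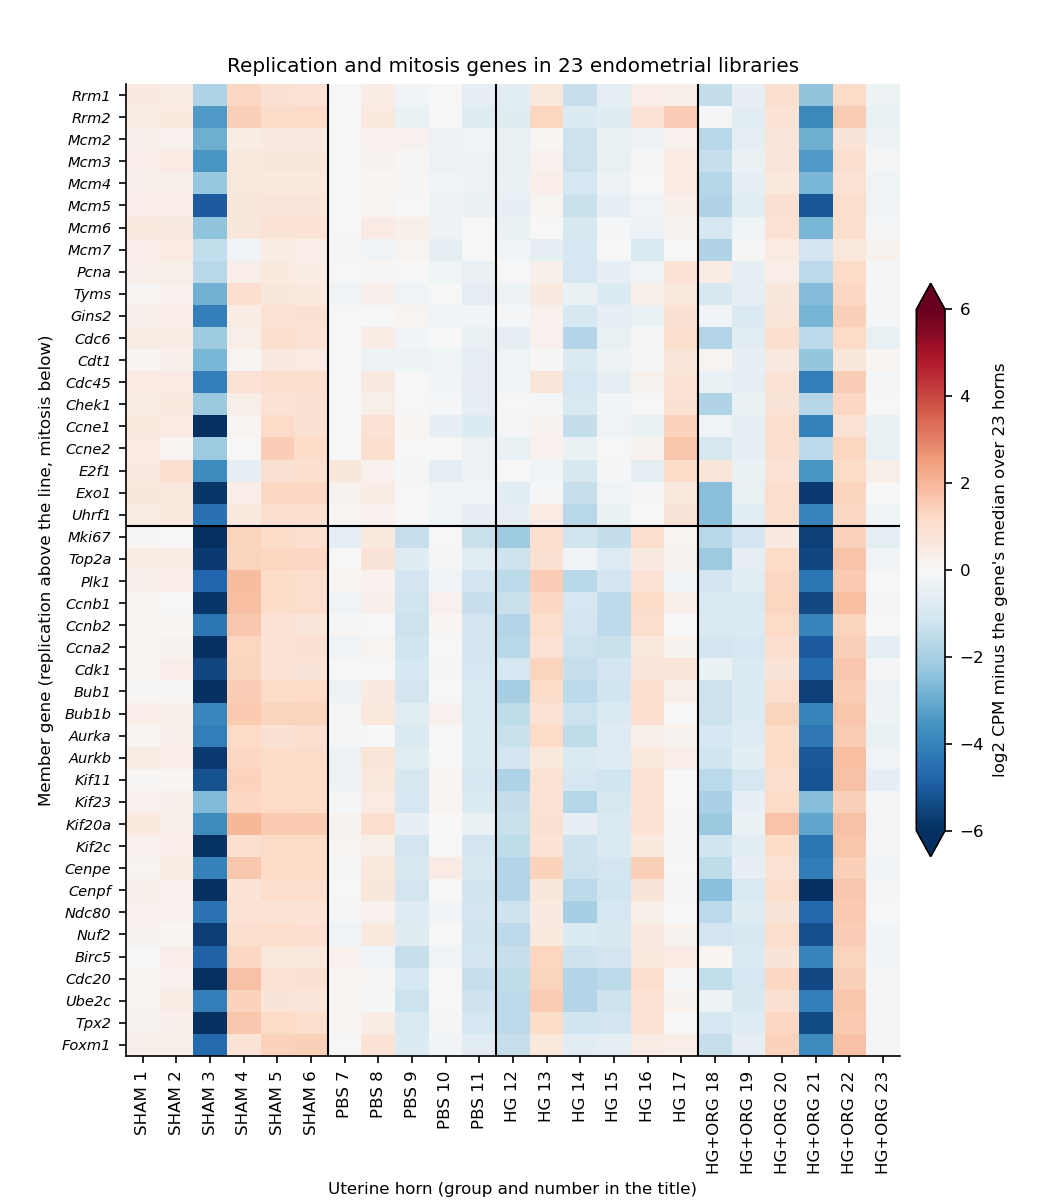
Each row is a member and each column a horn, and the colour is the log2 CPM minus the gene's median over the 23 horns, with colours saturating at 6 in either direction. SHAM 3 and HG+ORG 21 are the 2 lowest horns in 41 of 44 rows, and HG+ORG 22 is the highest in 33.

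At the other end, HG+ORG 22 was the highest of the 23 horns in 33 members and among the 2 highest in 41. SHAM 4 was highest in 7 members and HG 17 in 4. The 7 members with SHAM 4 on top included Plk1, Ccnb2, Kif20a, Cenpe, Cdc20 and Tpx2 of mitosis and Rrm1 of replication, and the 4 with HG 17 on top were Ccne1, Ccne2, E2f1 and Cdt1, all of the G1 to S transition. The HG+ORG group held both a horn that was among the 2 lowest in most members and the horn highest in most of them.

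Averaged over the members of a class, the mitosis score (mean log2 CPM of the 24 genes) had a lowest, median and highest value of 0.33, 6.30 and 7.00 in SHAM. It was 5.58, 6.04, 4.64, 5.66 and 4.60 in PBS 7 to PBS 11. In HG it ran over 4.11, 5.16 and 6.64, and in HG+ORG over 0.95, 5.15 and 7.21. The ranges of the 4 groups overlapped, and apart from SHAM 3 the SHAM horns lay from 5.86 upward. The 6 HG horns fell on both sides of a gap, with HG 12, HG 14 and HG 15 at 4.11, 4.39 and 4.54 and HG 17, HG 16 and HG 13 at 5.78, 6.42 and 6.64.

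The group means of the mitosis score were 5.42 ± 2.53 in the 6 SHAM horns (± SD here and below), 5.31 ± 0.65 in the 5 PBS horns, 5.31 ± 1.10 in the 6 HG horns and 4.92 ± 2.23 in the 6 HG+ORG horns. With all horns kept, the means differed by less than the spread within groups. Without SHAM 3 the SHAM mean was 6.43 ± 0.52 over 5 horns, and without HG+ORG 21 the HG+ORG mean was 5.72 ± 1.22 over 5. A horn was left out here because its members were low, so these reduced means describe the remaining horns and compare nothing.

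The replication score (mean log2 CPM of the 20 genes) had a lowest, median and highest value of 2.37, 6.10 and 6.48 in SHAM. It was 5.66, 5.95, 5.62, 5.39 and 5.23 in PBS 7 to PBS 11, 4.53, 5.42 and 6.38 in HG, and 2.63, 5.31 and 6.73 in HG+ORG. The means were 5.59 ± 1.59 in SHAM (6.23 ± 0.21 without SHAM 3), 5.57 ± 0.27 in PBS, 5.48 ± 0.62 in HG and 5.17 ± 1.48 in HG+ORG (5.67 ± 0.89 without HG+ORG 21). The 5 remaining SHAM horns, 2 of them the near-identical SHAM 5 and SHAM 6, lay in a narrow band from 6.05 to 6.48. All 5 PBS horns lay under that band. Of the HG and HG+ORG horns only HG 17 (6.38), HG+ORG 20 (6.43) and HG+ORG 22 (6.73) reached it or exceeded it. In bulk tissue, fewer cycling cells and less RNA of these genes per cell cannot be told apart.

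**Figure D2:**
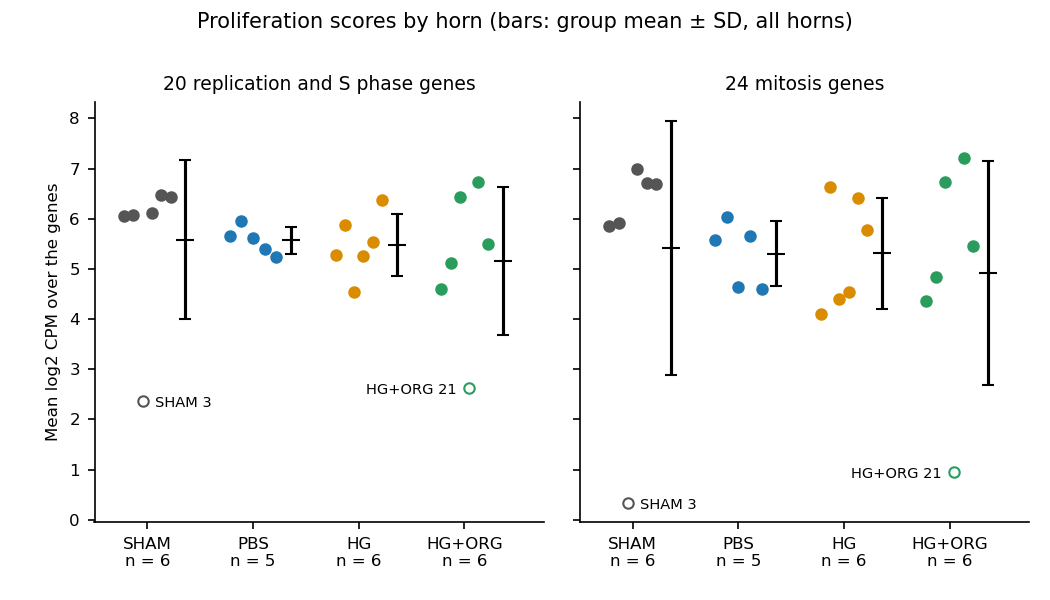
Points are horns, the vertical axis is the mean log2 CPM over the genes of a class, and bars are the group mean ± SD over all horns. Open points mark SHAM 3 and HG+ORG 21, which lie at 2.37 and 2.63 for replication and at 0.33 and 0.95 for mitosis, far under the other horns of their groups.

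Among replication members, the licensing and helicase genes (Cdc6 and Cdt1, which load the MCM ring, Mcm2 to Mcm7, and Gins2 and Cdc45, which activate it) had a mean score of 5.90 ± 1.48 in SHAM, 5.90 ± 0.21 in PBS, 5.74 ± 0.57 in HG and 5.48 ± 1.42 in HG+ORG. Mcm2 had a lowest, median and highest level of 4.14, 7.47 and 7.64 log2 CPM in SHAM, 5.82, 6.73 and 7.36 in HG, and 4.16, 6.68 and 7.89 in HG+ORG. Its PBS horns stood at 7.09, 7.34, 7.33, 6.72 and 6.83, under the 7.36 of the second lowest SHAM horn. Mcm5 had 1.69, 7.23 and 7.44 in SHAM, 5.36, 6.37 and 7.00 in HG, and 1.54, 6.28 and 7.73 in HG+ORG. Its PBS values were 6.71, 6.87, 6.69, 6.37 and 6.30. The SHAM horns other than SHAM 3 lay close together, from 7.36 to 7.64 for Mcm2 and from 7.08 to 7.44 for Mcm5, and the HG+ORG horns reached both under and over them.

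The genes of the fork, of nucleotide supply and of S phase chromatin (Pcna, Rrm1, Rrm2, the thymidylate synthase Tyms, the exonuclease Exo1 and Uhrf1, which maintains DNA methylation) had a mean score of 6.08 ± 1.67 in SHAM and 5.98 ± 0.31 in PBS. The HG score was 5.95 ± 0.72 and the HG+ORG score 5.52 ± 1.65. Pcna had a lowest, median and highest level of 4.96, 6.99 and 7.20 in SHAM, 5.64, 6.49 and 7.46 in HG and 5.07, 6.77 and 7.77 in HG+ORG. Its PBS levels were 6.61, 6.72, 6.61, 6.35 and 6.22. Pcna had the second smallest SD over 23 horns among the members, 0.685, and its other SHAM horns lay at 6.96 or above. Rrm2 had 2.00, 6.24 and 6.86 in SHAM, 4.60, 5.50 and 6.88 in HG and 1.54, 5.17 and 6.92 in HG+ORG, and PBS levels of 5.39, 6.02, 5.00, 5.41 and 4.67. Its groups overlapped throughout, and HG 17 at 6.88 lay just above SHAM 4, the highest SHAM horn.

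The switch genes of the G1 to S transition (the cyclins Ccne1 and Ccne2, the transcription factor E2f1 and the checkpoint kinase Chek1) were the replication class in which SHAM 3 and HG+ORG 21 differed most from each other. Their score was 0.54 in SHAM 3 and 1.43 in HG+ORG 21. The gap was largest in Ccne1, at 1 count in SHAM 3 and 9 in HG+ORG 21. The other counts were 13 and 14 for E2f1, 27 and 38 for Ccne2, and 42 and 55 for Chek1. Group means of the class score were 4.06 ± 1.76 in SHAM, 4.13 ± 0.44 in PBS, 4.12 ± 0.71 in HG and 3.83 ± 1.37 in HG+ORG. Ccne1, which activates the kinase that starts S phase, had a lowest, median and highest level of -1.96, 4.79 and 5.39 in SHAM, 2.84, 4.09 and 5.62 in HG, and 0.20, 3.95 and 5.30 in HG+ORG. Its PBS levels were 4.26, 5.11, 4.38, 3.77 and 3.41. E2f1 had 0.53, 5.02 and 5.24 in SHAM, 3.34, 4.14 and 5.40 in HG and 0.76, 4.82 and 5.36 in HG+ORG, with PBS levels of 4.97, 4.55, 4.22, 3.67 and 3.97. For E2f1 SHAM 4 lay at 3.78, low among the SHAM horns, although it was the highest SHAM horn for the mitosis genes.

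Among mitosis members, the chromosome genes had the largest group SDs in SHAM. Mki67 had a lowest, median and highest level of 0.62, 8.15 and 8.94 in SHAM, 5.49, 7.10 and 8.67 in HG and 2.00, 6.76 and 9.00 in HG+ORG. Its PBS levels were 7.04, 8.22, 6.25, 7.64 and 6.28, and its counts were 14 in SHAM 3 and 35 in HG+ORG 21 against at least 505 elsewhere. Its mean was 7.03 ± 3.19 in SHAM and 7.09 ± 0.86 in PBS. Top2a had 2.20, 8.80 and 9.29 in SHAM, 6.71, 7.99 and 8.85 in HG and 2.50, 7.57 and 9.67 in HG+ORG, and PBS levels of 7.96, 8.72, 7.23, 7.83 and 7.28. For both genes the low SHAM and HG+ORG horns were the same 2 as above, and the rest of the 4 groups overlapped.

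The mitotic cyclins with their kinase and transcription factor (Ccna2, Ccnb1, Ccnb2, Cdk1 and Foxm1) had a mean score of 5.40 ± 2.52 in SHAM, 5.28 ± 0.65 in PBS, 5.39 ± 1.10 in HG and 5.03 ± 2.19 in HG+ORG. Cdk1 had a lowest, median and highest level of 1.09, 7.13 and 7.88 in SHAM, 5.16, 6.35 and 7.85 in HG and 1.88, 6.28 and 8.15 in HG+ORG. Its PBS levels were 6.52, 6.53, 5.50, 6.59 and 5.48, all under the 6.69 of the second lowest SHAM horn. Ccnb1, the cyclin that activates Cdk1 at mitotic entry, had -1.14, 5.28 and 6.50 in SHAM, 3.11, 4.33 and 5.91 in HG and -0.74, 4.18 and 6.51 in HG+ORG, with PBS levels of 4.48, 4.99, 3.47, 4.93 and 3.29. The Cdk1 promoter lines printed above and those of Top2a and Cdc20 belong to genes at 20, 45 and 2 counts in SHAM 3.

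The mitotic kinases and their partners (Plk1, Bub1, Bub1b, the Aurora kinases Aurka and Aurkb, the passenger protein Birc5 and the spindle factor Tpx2) had a mean score of 5.21 ± 2.57 in SHAM, 5.10 ± 0.61 in PBS, 5.13 ± 1.12 in HG and 4.77 ± 2.22 in HG+ORG. Plk1 had a lowest, median and highest level of 0.71, 6.19 and 7.33 in SHAM, 3.83, 4.79 and 6.94 in HG and 1.10, 5.13 and 7.04 in HG+ORG. Its PBS levels of 5.59, 5.74, 4.32, 5.30 and 4.32 lay under the 5.76 of SHAM 1, the highest of them by a narrow margin. The exit genes Cdc20 and Ube2c had 5.58 ± 2.65 in SHAM, 5.43 ± 0.71 in PBS, 5.51 ± 1.37 in HG and 5.21 ± 2.25 in HG+ORG. Cdc20 had -1.49, 6.20 and 7.39 in SHAM, 3.87, 4.82 and 6.97 in HG and 0.20, 5.07 and 7.04 in HG+ORG, with PBS levels of 5.77, 5.68, 4.56, 5.63 and 4.27. The kinesins and kinetochore genes (Kif11, Kif23, Kif20a, Kif2c, Cenpe, Cenpf, Ndc80 and Nuf2) had 5.06 ± 2.37, 4.94 ± 0.67, 4.82 ± 1.05 and 4.46 ± 2.22 in the same order. In each of these mitosis classes the SDs of SHAM and HG+ORG exceeded that of HG, and SHAM 3 and HG+ORG 21 supplied the lowest value of each.

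The balance of mitosis to replication differed between horns with a similar overall level. The mitosis score minus the replication score was -2.03 in SHAM 3 and -1.68 in HG+ORG 21, the 2 lowest values. It was next lowest in HG 12 (-1.18) and PBS 9 (-0.98) and highest in SHAM 4 (0.89), HG 16 (0.87) and HG 13 (0.77). Group means were -0.17 ± 0.99 in SHAM, -0.27 ± 0.52 in PBS, -0.17 ± 0.83 in HG and -0.24 ± 0.76 in HG+ORG, which differed by less than the spread between horns. The value has no natural zero between gene sets, so only its order across horns is read. In that order SHAM 1, SHAM 2, SHAM 5 and SHAM 6 sat in the middle, between -0.19 and 0.25.

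**Figure D3:**
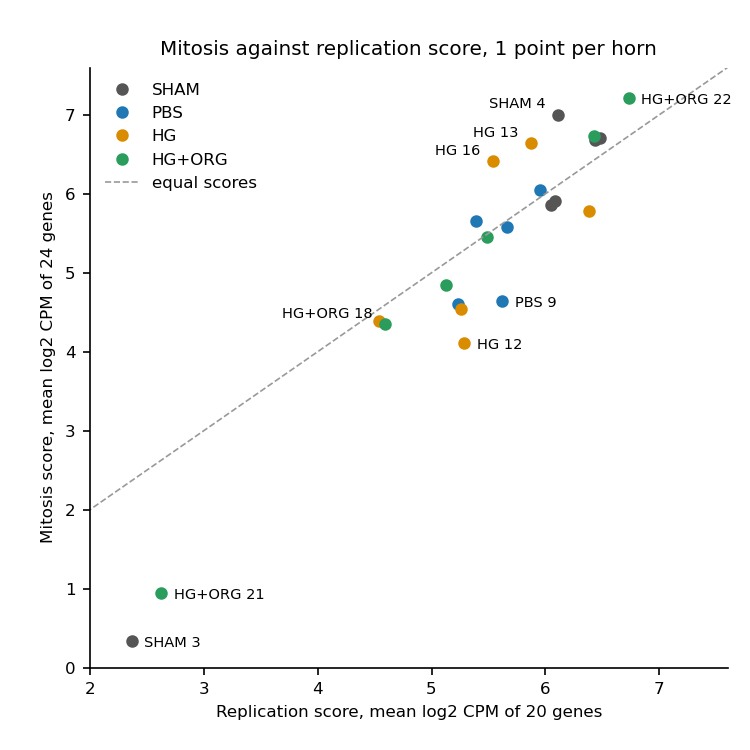
Each point is a horn, with the mean log2 CPM of 20 replication genes on the horizontal axis and of 24 mitosis genes on the vertical axis, coloured by group, and the dashed line marks equal scores. SHAM 3 and HG+ORG 21 lie alone at the lower left, HG+ORG 22 at the upper right, and the groups are mixed along the rest.

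No member differed between groups at an adjusted p under 0.05. In edgeR's quasi-likelihood test over all 17708 features, 0 of 44 members and 0 features (0%) were called in each of 7 contrasts: PBS, HG, HG+ORG and all injured horns against SHAM, HG and HG+ORG against PBS, and HG+ORG against HG. At an unadjusted p under 0.05, too, 0 of 44 members passed in each of the 7 contrasts. The share of all features that did was 2.17% for PBS vs SHAM, 11.3% for HG vs SHAM, 9.91% for HG+ORG vs SHAM, 3.37% for HG vs PBS, 6.09% for HG+ORG vs PBS, 9.81% for HG+ORG vs HG and 7.58% for injured vs SHAM. DESeq2 and limma called 0 members in each contrast as well. Over all genes limma called 0, and DESeq2 called 2, 292, 95, 0, 1, 172 and 6 in the order of these shares.

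Against SHAM, the fitted fold was under 0 in 44 of 44 members in each of the 3 treatments, which share the same SHAM horns. The median log2 fold of the members was -0.70 in PBS, -0.52 in HG and -0.37 in HG+ORG, beside 0.02, 0.00 and 0.06 over all features. Over the mitosis members the medians were -0.82, -0.62 and -0.37, and over the replication members -0.38, -0.39 and -0.37. The members with the smallest p in PBS vs SHAM were Plk1 (log2 fold -1.09, SE 0.84), Kif23 (-0.82), a kinesin of cell division, and Kif20a (-0.92), another. In HG vs SHAM they were Mcm7 (-0.53, SE 0.35), Mcm6 (-0.69) and Kif20a (-1.04), and in HG+ORG vs SHAM Rrm1 (-0.55, SE 0.50), Mcm4 (-0.45) and the centromere motor Cenpe (-0.64). In injured vs SHAM, where the median was -0.51 beside 0.03 over all features, they were Rrm1 (-0.61, SE 0.40), Kif20a (-0.83) and Kif23 (-0.66). None passed, the smallest adjusted p of a member in these 4 contrasts being 0.611 (edgeR).

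These fitted folds compare mean counts, in which a horn near 0 weighs little against high ones, and they part from the differences of mean log2 CPM. In PBS vs SHAM the difference of means was above 0 in 18 members whose fitted fold was under 0, and in HG vs SHAM in 21. Exo1, for example, had a fitted log2 fold of -0.54 in PBS vs SHAM and means of 4.41 in PBS and 4.08 in SHAM. The median difference of means was -0.08 in PBS vs SHAM, -0.05 in HG vs SHAM and -0.46 in HG+ORG vs SHAM. limma, which weighs log values, gave member medians of -0.09, -0.12 and -0.39.

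Between the injured groups the fitted medians were small, and their sign depended on the method. HG vs PBS had a median log2 fold of 0.10 with 33 of 44 members above 0, HG+ORG vs PBS 0.32 with 39, and HG+ORG vs HG 0.18 with 36. limma gave -0.05, -0.25 and -0.25. In HG vs PBS the smallest p among members above 0 belonged to Rrm2 (0.60), Birc5 (0.54) and Ube2c (0.56), and among those under 0 to Mcm7 (-0.27), Mcm6 (-0.35) and Mcm2 (-0.25). For HG+ORG vs PBS they were Ube2c (0.67), Birc5 (0.59) and Ccnb1 (0.71), and Mcm2 (-0.17), Mcm4 (-0.11) and Mcm6 (-0.06). In HG+ORG vs HG they were Mcm7 (0.35), Kif20a (0.50) and the kinetochore gene Ndc80 (0.45), and Ccne2 (-0.27), Rrm2 (-0.33) and Cenpe (-0.20). Without HG+ORG 22 alone the member medians of the last 2 contrasts were -0.15 and -0.29, and without HG+ORG 21 alone 0.56 and 0.39. In HG vs PBS the median was -0.08 without HG 13 and 0.32 without PBS 8.

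Leaving out SHAM 3 moved every comparison with SHAM further under 0 and still gave no call at an adjusted p under 0.05. The median member fold was -0.96 in PBS vs SHAM, -0.75 in HG vs SHAM, -0.61 in HG+ORG vs SHAM and -0.77 in injured vs SHAM, and 44 of 44 members were under 0 in each. At an unadjusted p under 0.05 there were 0 members in PBS vs SHAM (1.74% of all features), 2 in HG vs SHAM (9.77%), 0 in HG+ORG vs SHAM (10.9%) and 3 in injured vs SHAM (5.76%). The 2 were Mcm6 (log2 fold -0.90, SE 0.40) and Mcm7 (-0.69, SE 0.31), with edgeR adjusted p = 0.468 and 0.480. The 3 were Mcm6, Rrm1 (-0.84, SE 0.37) and Kif20a (-1.10, SE 0.51). The 2 are 4.55% of the members, under the share of all features in that contrast, and the 3 are 6.82%, slightly above it.

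With SHAM 3 left out, 15 of the 44 members had all 5 SHAM horns above all 5 PBS horns, against 1.02% of all features. They were 10 replication members (Rrm1, Mcm2, Mcm3, Mcm4, Mcm5, Mcm6, Pcna, Gins2, Cdt1 and Uhrf1) and 5 mitosis members (Plk1, Cdk1, Aurka, Ndc80 and Ube2c). Against the HG horns there were 2, Mcm5 and Mcm6 (1.03% of all features), and against the HG+ORG horns 0 (0.158%). With SHAM 3 kept the count was 0 in each, because the horn left out is the one that breaks the order. That horn was left out for low members, and the members are not independent of each other. The counts therefore describe the remaining horns and are no support for a difference. For Mcm6 the 5 SHAM horns lay between 7.86 and 8.16, the PBS horns between 7.04 and 7.82 and the HG horns between 6.35 and 7.54. SHAM 5 and SHAM 6, the near-identical pair, are 2 of the 5.

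Leaving out both low horns, a choice made after the data had been seen, gave 5 members at an unadjusted p under 0.05 in PBS vs SHAM (2.13% of all features), 8 in HG vs SHAM (10.7%), 0 in HG+ORG vs SHAM (8.37%) and 6 in injured vs SHAM (5.34%). None passed the adjusted threshold. In HG+ORG vs PBS 1 member passed unadjusted (5.54%), Cdt1 at 0.55 (SE 0.24, edgeR adjusted p = 0.830). The 5 were Tpx2, Plk1, Cdk1, Cdt1 and Rrm2, with folds from -1.37 for Plk1 to -0.59 for Cdt1. The 8 were Mcm2, Mcm3, Mcm5, Mcm6, Mcm7, Rrm1, Exo1 and Kif20a, led by Mcm6 at -0.90 (SE 0.28, edgeR adjusted p = 0.417). With HG+ORG 18 left out as well, the unadjusted counts were 18 in PBS vs SHAM (3.68% of all features), 15 in HG vs SHAM (17.3%), 0 in HG+ORG vs SHAM (1.92%), 8 in injured vs SHAM (4.68%) and 4 in HG+ORG vs HG (16.5%), the last being Exo1, Mcm5, Mcm6 and Mcm7. The smallest adjusted p of a member was then 0.162 (edgeR). Horns were left out here for low members, which narrows the spread by construction, so these counts are no support for a difference. In HG+ORG vs SHAM the median member fold was -0.16 without HG+ORG 21 alone, -0.81 without HG+ORG 22 alone and -0.40 without both low horns, so its size rested on single horns.

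**Figure D4:**
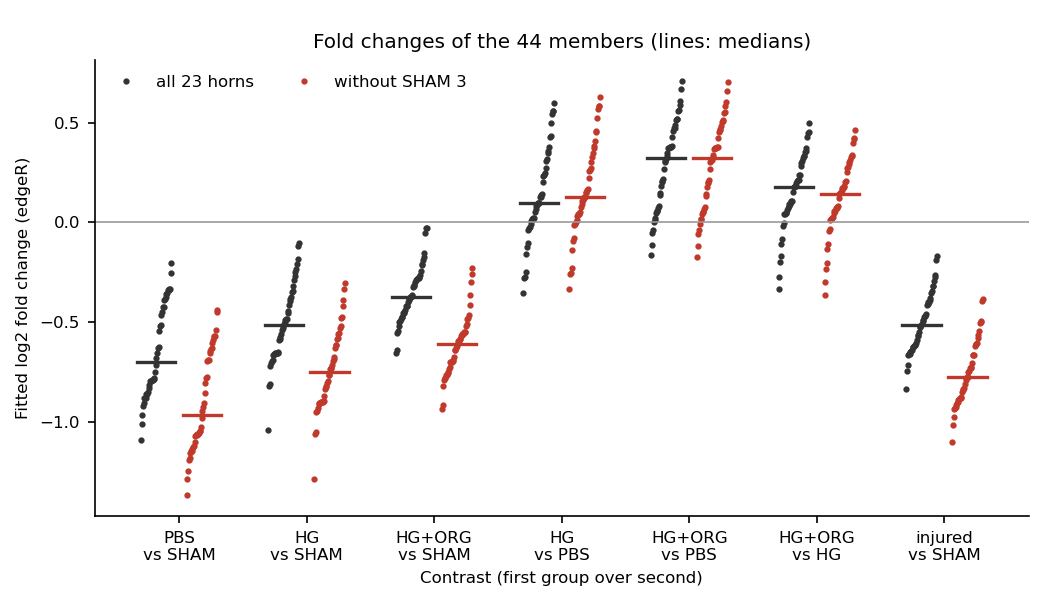
Points are the edgeR log2 fold changes of the 44 members in each of 7 contrasts, in black for all 23 horns and in red without SHAM 3, sorted by size within a column, and short lines are medians. The folds against SHAM lie under 0 in both fits and move from a median of -0.70 to -0.96 in PBS vs SHAM, while no member passed the adjusted threshold.

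The rest of the pathway moved with the members in the 2 low horns. The 2 horns were the lowest pair in 33 of 38 other replication and repair genes and in 38 of 42 other mitosis genes. In the G1 list, which holds the D-type cyclins, their kinases and Myc genes, they were the lowest pair in 5 of 13, and among the CDK inhibitors, pocket proteins and exit genes in 3 of 21. Ccnd1, the cyclin through which growth signals enter the cycle, stood at 2.72 in SHAM 3 and 3.44 in HG+ORG 21, against 4.32 in HG+ORG 18 and 5.17 or more elsewhere. The atypical repressors E2f7 (-1.96 and -0.74) and E2f8 (0.71 and -1.03), themselves switched on in S phase, were at their lowest there.

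Inhibitors of the cycle went both ways in the same horns. Of the 21 genes of the inhibitor list these horns were the highest pair in 3 (Cdkn1b, Cdkn2b and Ccng2) and the lowest pair in 3 (E2f7, E2f8 and the CDK inhibitor Cdkn2c, at 2.04 and 2.44), where 7.28% and 7.34% of all features did the same. Cdkn1a, which encodes the inhibitor p21, stood at 6.59 in SHAM 3 and 6.84 in HG+ORG 21, exceeded by HG+ORG 18 at 8.44, with the other 20 horns between 2.86 and 5.86. Cdkn1b, which encodes p27, stood at 7.49 and 7.25, Cdkn2b at 4.85 and 5.15 and the antiproliferative gene Btg2 at 9.38 and 8.93, where HG 12 had 9.18. Mycn was highest in these horns as well, at 8.36 and 8.39. Apart from Cdkn1a these genes were picked after their values had been seen. Cdkn1c and Rbl2 did not stand out, with 2.48 and 3.39 for Cdkn1c beside a 23-horn median of 3.28, and 5.31 and 4.62 for Rbl2 beside 4.95.

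Markers of the luminal and glandular epithelium were highest in the 2 low horns. The summed level of 8 epithelial markers was 12352.5 CPM in SHAM 3 and 11691.3 CPM in HG+ORG 21, the 2 highest of 23, and the ranges were 5650.2 to 12352.5 in SHAM, 4625.5 to 7739.8 in PBS, 3616.2 to 7329.6 in HG and 843.5 to 11691.3 in HG+ORG. The 2 horns were the highest pair in 3 of the 8 markers and the lowest pair in 0, and no epithelial marker was at 0 in any horn. Among 11 genes of steroid receptors and estrogen response the 2 horns were the highest pair in 4, the secretory genes Ltf (14.11 and 14.06), C3 (14.97 and 14.47), Lcn2 (14.27 and 14.33) and the mucin Muc1 (11.04 and 10.73). They were low for Pgr, the progesterone receptor (5.64 and 5.31, with only HG+ORG 18 lower at 2.58). Esr1, the estrogen receptor, was highest of all in SHAM 3 at 8.89 and stood at 8.21 in HG+ORG 21, beside a 23-horn median of 8.32. Over all features the 2 horns were the highest pair in 7.28%. By mean log2 CPM over these 11 genes, SHAM 3 ranked only 13 from the top of 23 and HG+ORG 21 ranked 10.

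Other cell types did not share a pattern in the 2 horns. Counted from the top of 23, SHAM 3 ranked 12 for 8 stromal markers, 18 for 5 endothelial, 10 for 5 smooth muscle, 6 for 6 macrophage and 22 for 3 lymphocyte markers by summed CPM, and HG+ORG 21 ranked 7, 11, 11, 2 and 4. By mean log2 CPM, in which no single gene dominates, the macrophage rank of SHAM 3 was 21 instead of 6, and that of HG+ORG 21 was again 2. The sum in SHAM 3 rested on Cd68, with 4379 counts against 17 for Adgre1, 11 for Ms4a7 and 42 for C1qa. The normalisation factors of the 2 horns were 0.756 and 0.799, beside 0.702 in HG+ORG 18 and 0.912 to 1.13 elsewhere. Their mitochondrial shares, 4.13 and 5.44%, lay within the range of the others. No marker of another cell type was called in any contrast, and by summed CPM the groups overlapped for every cell type. By mean log2 CPM the 3 lymphocyte markers did not overlap between HG (1.45 to 2.08) and SHAM (-0.59 to 1.12). The fitted folds lay mostly to one side. In HG vs SHAM the fitted fold was above 0 in 8 of 8 stromal, 5 of 5 endothelial and 5 of 5 smooth muscle markers, with medians of 2.83, 3.17 and 4.07, and in 0 of 8 epithelial markers, with a median of -0.55. In PBS vs SHAM the counts were the same 8, 5, 5 and 0, with medians of 1.29, 2.40, 2.79 and -0.27. In HG vs SHAM 75, 100, 100 and 0% of these markers had an unadjusted p under 0.05 (edgeR), beside 11.3% of all features. For PBS vs SHAM the shares were 0, 40, 60 and 0%, beside 2.17%. Of the macrophage markers 6 of 6 passed unadjusted in HG+ORG vs PBS, beside 6.09% of all features. The mean stromal score went against the fitted folds of PBS vs SHAM, at 3.93 ± 3.29 in PBS and 4.52 ± 0.91 in SHAM. The median summed stromal level was 334.7 CPM in PBS and 477.6 in SHAM. The summed stromal level was 126.9 to 749.7 CPM in SHAM, 12.6 to 4165.2 in PBS, 311.9 to 4122.3 in HG and 110.9 to 10053.3 in HG+ORG.  The part of the epithelial and stromal levels and of the normalisation in the member levels was not tested.

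**Figure D5:**
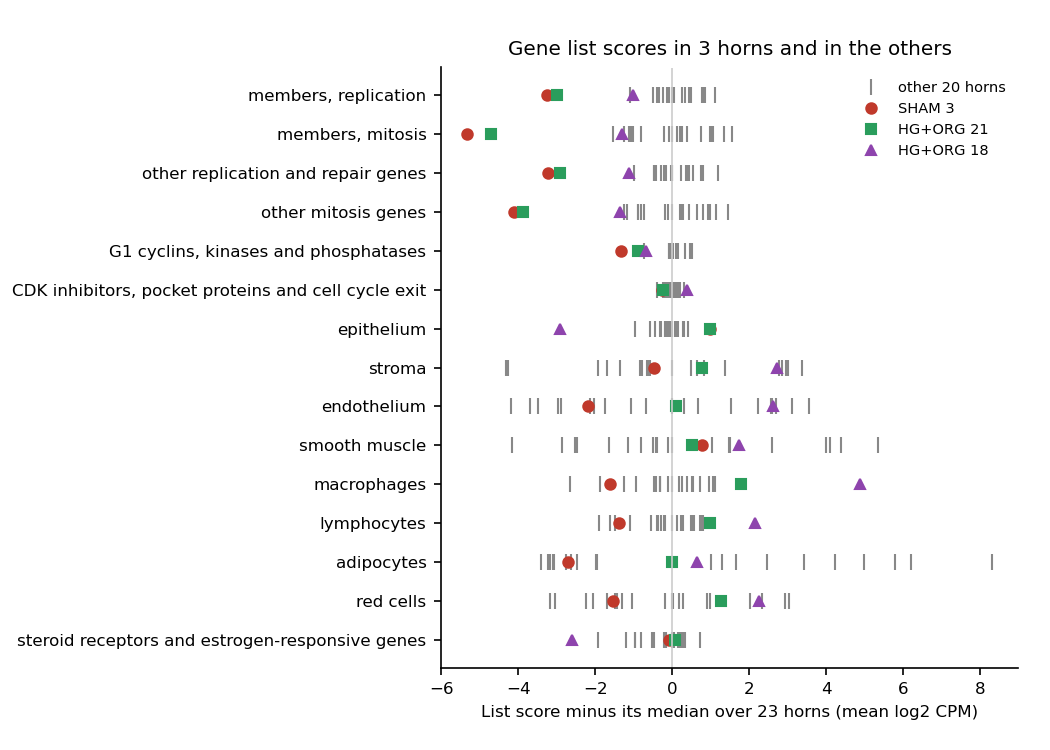
The horizontal axis is the mean log2 CPM of a gene list in a horn minus its median over 23 horns, with 1 row for each list, symbols for SHAM 3, HG+ORG 21 and HG+ORG 18, and ticks for the other 20 horns. SHAM 3 and HG+ORG 21 lie far to the left for members and for other replication and mitosis genes, and at the right for epithelium.

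No gene of the 5 pathway lists was called in any of the 7 contrasts (edgeR). Other replication and repair genes had a fitted fold under 0 in 38 of 38 for PBS vs SHAM, with a median of -0.36, and other mitosis genes in 41 of 42, with -0.70. In HG vs SHAM the medians were -0.45 and -0.55, and in HG+ORG vs SHAM -0.27 and -0.38. The exit and inhibitor list had 2 of 21 genes at an unadjusted p under 0.05 in HG vs SHAM (9.52%, beside 11.3% of all features), Cdkn1c (log2 fold 1.21, SE 0.53, edgeR adjusted p = 0.375) and the growth arrest gene Gas1 (1.83, SE 0.86, 0.433). The same list had 2 of 21 in HG+ORG vs HG (9.52%, beside 9.81%), Cdkn1a (1.94, SE 0.63, edgeR adjusted p = 0.281) and Mdm2 (0.59, SE 0.24, 0.388), both targets of p53. There were 3 of 21 in HG+ORG vs PBS (14.3%, beside 6.09%), led by Cdkn1a (1.70, SE 0.67, edgeR adjusted p = 0.746) and Cdkn2d (0.97, SE 0.41, 0.788), and 1 in HG+ORG vs SHAM (4.76%, beside 9.91%), Mdm2. For Cdkn1a the HG+ORG horns ran from 4.09 over a median of 5.50 to 8.44 in HG+ORG 18, and HG+ORG 21 was the next highest.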

How the data were processed

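The authors deposited 1 table of raw read counts per gene for the 23 libraries, whole numbers that sum to different totals. The submitters' processing notes name HISAT2 2.2.1 and featureCounts 2.0.3, with Trimmomatic 0.39 and SAMtools 1.21, and build GRCm39. Settings and counting strand are not stated, so overlapping genes may share reads. Endometrium was squeezed from each horn by hand, per the labels' protocols, and stranded poly(A) libraries were sequenced as single-end reads. Each of the 18682 features has at least 10 counts in at least 3 libraries. Of these, 18341 carried a symbol, and Cd3e and Areg were not analysed here.

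edgeR 4.0.16 (R 4.3.3) was run on the deposited counts with TMM factors and filterByExpr, which removed 974 features. All 4 groups entered 1 quasi-likelihood fit without covariates, since the labels give no batch. The 7 contrasts were adjusted by Benjamini-Hochberg over 17708 features at 0.05. Each SE was derived from the log2 fold and the F statistic. Alternatives were DESeq2 1.42.0, its size factors in edgeR, limma 3.58.1 (voom), no count filter, a prior count of 0.5 for scores, each of 23 libraries left out, and, chosen after seeing the data, SHAM 3 with HG+ORG 21 left out, also with HG+ORG 18. The fit was tested only on simulated counts with the same spread in all genes and no low horns, so the test does not cover the members' spread. Genes named are the 44 members, 12 of them with values in every group, the 3 with the smallest p in each direction of a contrast, up to 2 leading genes of each pathway list, and Ccnd1, Cdkn1a, Cdkn1c and Rbl2; any other gene was chosen after its values were seen. Members and lists were chosen with earlier results of these data known. Promoter sequences are RefSeq's.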

Additional observations from a re-analysis of the deposited data

Results flagged for a closer look

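Within-group outliers were looked for in the replication and mitosis scores and in the 12 members with full values, by the size of the gap between the lowest or highest horn and its neighbour relative to the range of the group. Of 56 group tests 16 stood out, at a limit that about 1 in 20 tests pass by chance. The members are not independent of each other, and the low cell cycle score of SHAM 3 was known when they were listed. The flags on SHAM 3 therefore describe that horn and cannot be set against chance. SHAM 3 accounted for 14. It lay far under the other 5 SHAM horns in the replication score (2.37), the mitosis score (0.33), Mki67 (0.62), Top2a (2.20), Cdk1 (1.09), Ccnb1 (-1.14), Plk1 (0.71), Cdc20 (-1.49), Mcm2 (4.14), Mcm5 (1.69), Pcna (4.96), Rrm2 (2.00), Ccne1 (-1.96) and E2f1 (0.53), all in log2 CPM. HG+ORG 21 accounted for the other 2, Ccne1 (0.20) and E2f1 (0.76). For the other 12 the gap of HG+ORG 21 did not reach the limit.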

How the results depend on the processing

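The count of members called stayed at 0 in all 7 contrasts under each alternative run. The count of all genes called was 0 by edgeR and changed with DESeq2, to 2 in PBS vs SHAM, 292 in HG vs SHAM, 95 in HG+ORG vs SHAM, 1 in HG+ORG vs PBS, 172 in HG+ORG vs HG and 6 in injured vs SHAM. Leaving out 1 library gave 0 to 1 genes in HG+ORG vs HG. The median member folds moved by less than 1 SD of the horns' scores. That SD, 1.49 when pooled within groups, is larger than every median fold of the main fit. The limit could therefore hardly be passed and does not show that the medians were stable. Between injured groups the medians changed sign when 1 library was left out. Their ranges were -0.29 to 0.39 in HG+ORG vs HG, -0.15 to 0.59 in HG+ORG vs PBS and -0.08 to 0.32 in HG vs PBS. Against SHAM, with 1 library left out, the medians stayed under 0. In PBS vs SHAM they ran from -0.96 to -0.54 (lowest without SHAM 3). In HG vs SHAM they ran from -0.79 to -0.35 (without HG 13 and HG 14). The range was -0.81 to -0.16 in HG+ORG vs SHAM (without HG+ORG 22 and HG+ORG 21). For injured vs SHAM it was -0.77 to -0.39 (without SHAM 3 and SHAM 4).

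Of the alternative values of named members 847 kept their sign and side of the threshold and 23 turned in sign, all of these in contrasts between injured groups. In HG+ORG vs PBS Ccnb1 was -0.078 with limma. There Mcm2, Mcm4 and Mcm6 were 0.055, 0.10 and 0.17 without SHAM 3 and HG+ORG 21, and 0.26, 0.31 and 0.34 with HG+ORG 18 left out as well. In HG+ORG vs HG Cenpe was 0.016 without the 2 horns, and without the 3 horns Ccne2, Rrm2 and Cenpe were 0.090, 0.0023 and 0.28. With 1 library left out Mcm2 ran from -0.47 to 0.054, Mcm4 from -0.44 to 0.10 and Mcm6 from -0.35 to 0.17 in HG+ORG vs PBS. In HG+ORG vs HG Ndc80 ran from -0.15 to 0.69, Ccne2 from -0.67 to 0.20 and Cenpe from -0.71 to 0.18. The cause was not tested. No paired analysis was possible because the labels do not say which horns came from 1 animal, so any pairing across groups was left out.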

Other observations

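Ihh, the epithelial hedgehog ligand that progesterone induces in the uterus, was at 1.02 log2 CPM or lower in 5 horns and was picked after its values had been seen. It stood at -1.83 in SHAM 4, -0.97 in HG 16, -0.80 in HG 13, 0.20 in SHAM 3 and 1.02 in HG+ORG 21, and at 1.46 in HG+ORG 18, with a median of 6.21 over the 23 horns. The first 3 of these horns had the highest mitosis score relative to the replication score (0.89, 0.87 and 0.77), and SHAM 3 and HG+ORG 21 had the lowest. HG 14, also chosen after its values were seen and the horn with the lowest Mycn (1.96), C3 (5.66) and Lcn2 (4.21), had Ihh at 8.01 and was the lowest HG horn in the replication score (4.53).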
